A study of Mus musculus with 6 samples.

Results

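The transcripts described here encode proteins of the mitochondrial ribosome, the respiratory chain and the mitochondrial protein import machinery, with a smaller number of other mitochondrial proteins. They were chosen from the deposited gene names: a probe set was taken if its name in either of the authors' lists of changed probe sets contained the word mitochondrial, NADH dehydrogenase, ATP synthase, cytochrome c oxidase, ubiquinol or translocase of, with solute carriers left out. This gave 38 deposited names on 46 probe sets, of 1861 distinct names on 2451 listed probe sets and 45101 probe sets on the array. The members are 37 genes and 1 unplaced sequence entry, an EST. Of the 38 names, 36 came from the authors' list for V7 and WT2 and 2 from their list for C5 and V7, so the values of V7 against WT2 chose most members and are given below as a description.

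The study measured RNA on 6 Affymetrix arrays from 3 clonal lines of EL4, a mouse T cell lymphoma line. WT2 responds to the phorbol ester PMA (label: sensitive), does not adhere to plastic and is labelled non-metastatic. V7 resists PMA, adheres to plastic and is metastatic. C5 shares the PMA resistance and the adhesion of V7 and is labelled highly metastatic. All 3 lines were kept overnight without serum and received no other treatment. Each metastatic label is represented by 1 clone, as is the PMA-sensitive, non-adherent state. Each clone is represented by 2 aliquots of cells handled in parallel, numbered 1 and 2. Nothing in the labels ties the aliquots of a line to separate cultures, so the p-values below measure only how the aliquots vary, and that variation may be technical. In such bulk RNA, fewer cells with a transcript and less of it per cell cannot be told apart.

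Mitochondria hold a small genome that encodes core subunits of the respiratory chain, and a dedicated ribosome inside the organelle translates them. The proteins of that ribosome, most subunits of the respiratory complexes and the assembly factors are encoded in the nucleus, made in the cytosol and imported through translocases of the outer and inner membranes. Transcription of these nuclear genes is known to involve NRF1, the ETS factor GABP, the orphan receptor ERRα (Esrra), YY1 and MYC family factors. Tfam packages the mitochondrial genome and acts as a factor in its transcription.

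Promoter sequence, 250 bases before to 50 after the annotated gene start, was matched by symbol for 29 of the 37 genes in RefSeq's table for mouse build GRCm38.p6. The 29 genes lie on 16 chromosomes. Cox17, Cox6a2, Decr1, Grpel2, Mrpl15, Mrpl19, Mrpl38 and Mrps34 had no entry. The core of the GABP site, CCGGAAG on either strand, was found in 10 of the 29 promoters (34.5%), against 9.93% of 27025 genes in the table and 12.9% of its 17491 protein-coding genes. The 10 genes were Gfm1, Gpam, Mrpl27, Mrpl34, Mrpl51, Mrps16, Mrps22, Mrps23, Tfam and Timm10, and 6 of them belong to the 15 mitoribosomal genes with a promoter. The E-box CACGTG, the core site of MYC family factors, was found in 3 of 29 (10.3%; Mrpl36, Timm10 and Timm9) against 8.09% of all genes and 8.91% of protein-coding genes. The YY1 core AAGATGGCG was found in 2 (6.9%; Mrpl36 and Ndufa9) against 1.64% and 2.14%. The NRF1 core GCGCATGC was found in 1 (3.45%; Timm13) against 3.05% and 3.93%. The median GC content was 60.3% in the member promoters, from 46% to 73.7%, against 52.8% over all genes and 56.3% over protein-coding genes. These are letter matches in a window, counted without a test and without matching for GC content. In Timm10, 2 of the 3 CCGGAAG matches overlap each other downstream of the start.

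Stretches around GABP core and E-box matches wholly upstream of the gene start are shown for members whose signals are described below, to let the match be read in place. Each is written 5′ to 3′ along the gene's strand, the capitals mark the motif or its reverse complement, and the coordinates are those of RefSeq GRCm38.p6. The first set holds the GABP core in mitoribosomal genes.
Mrpl51, chr6:125192085-125192141, plus strand: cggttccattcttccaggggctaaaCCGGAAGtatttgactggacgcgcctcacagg
Mrps16, chr14:20393533-20393589, minus strand: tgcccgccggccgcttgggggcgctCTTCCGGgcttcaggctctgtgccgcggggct
Mrpl27, chr11:94653711-94653767, plus strand: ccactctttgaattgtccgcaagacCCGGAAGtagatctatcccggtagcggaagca
Mrpl34, chr8:71464864-71464920, plus strand: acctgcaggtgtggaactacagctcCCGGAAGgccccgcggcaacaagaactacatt
Mrps22, chr9:98601680-98601715, minus strand: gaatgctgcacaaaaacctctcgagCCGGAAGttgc
The second set holds the same core in a regulator of the mitochondrial genome, in an import chaperone and in a member that was lower in V7 and C5.
Tfam, chr10:71238060-71238116, minus strand: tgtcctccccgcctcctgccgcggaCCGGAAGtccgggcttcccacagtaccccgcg
Timm10, chr2:84826980-84827020, plus strand: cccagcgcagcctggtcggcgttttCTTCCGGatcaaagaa
Gpam, chr19:55127324-55127380, minus strand: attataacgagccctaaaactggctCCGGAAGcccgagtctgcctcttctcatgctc
The third set holds the E-box, and the Mrpl36 stretch also holds the YY1 core as its reverse complement, in lower case.
Timm9, chr12:71136703-71136758, minus strand: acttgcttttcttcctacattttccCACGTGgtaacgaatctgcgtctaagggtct
Mrpl36, chr13:73330941-73330996, plus strand: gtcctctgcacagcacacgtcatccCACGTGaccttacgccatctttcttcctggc

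Signals are MAS5 intensities on a linear scale, 1 per probe set and array, and every array had been scaled to the same 2% trimmed mean of 125. Median signals ran from 20.4 to 21.5 in WT2, from 15.8 to 16 in V7 and from 17 to 17.9 in C5. For the Gapdh control probe sets, the signal at the 3' end over that at the 5' end was 1.51 and 1.77 in the WT2 aliquots, 0.96 and 0.887 in V7, and 1.15 and 0.829 in C5. For beta-actin it was 1.83 and 2.04 in WT2, 2.5 and 2.04 in V7, and 2.91 and 1.87 in C5, and did not set WT2 above the other lines. The part of these ratios in the differences from WT2 was not tested. Of 13 T cell markers, 6 had a name in the lists, and their summed signal was 4075 to 4141 in WT2, 2545 to 2577 in V7 and 2238 to 2745 in C5. Cd3e, a subunit of the T cell receptor complex, was measured in all 3 lines (1867 and 2149 in WT2, 1048 and 917 in V7, 1162 and 901 in C5). Cd2, Cd247 and Cd6 had signals of at most 9.25 in V7 and C5. Cd5 had 677 and 535 in WT2, 108 and 149 in V7, and 52.5 and 39.8 in C5. Trat1 went the other way, with 6.34 and 1.21 in WT2, 1408 and 1470 in V7, and 1520 and 1293 in C5, and it makes up most of the sum in those lines. Of 7 fibroblast markers, 2 had a name, and their summed signal was 5591 to 6388 in WT2, nearly all of it Acta2, and 89.4 to 129.6 in V7 and C5. Pdgfra, the other marker, was higher outside WT2, with 1.88 and 2.7 in WT2, 66 and 85.8 in V7, and 47.2 and 48.2 in C5. Of the B cell, myeloid, erythroid and epithelial markers none had a name in the lists. The lists hold only probe sets chosen for a difference, so a missing name does not show that a marker is absent. The part of these differences in the results below was not tested.

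Most members had higher signals in V7 and C5 than in WT2, and a few were far lower. Against WT2, the log2 difference of V7 was positive for 35 of 38 members, with a median of 1.04. The log2 difference of C5 was positive for 33 of 38, with a median of 0.95, which corresponds to 1.93-fold. Over all 27022 probe sets tested, the median was −0.13 for V7 and −0.07 for C5, and 11354 and 12237 differences were positive. Most members were listed for a ratio of at least 2 between V7 and WT2, and C5 is compared with the same WT2 arrays. A gap between the members and all probe sets was thus built in for V7, and for C5 it is not independent of the choice. The arrays of C5 and WT2 did not overlap for 37 of the 38 members, with both C5 arrays above both WT2 arrays for 32 (26.2% of all probe sets tested) and below for 5 (33.4%). All differences are on the scale of log2(signal + 5.03), and all 46 member probe sets passed the filter on low signals. Under quantile normalization the median of all probe sets moved by 0.13 for V7 and 0.10 for C5 against WT2, while the medians of the members were 1.06 and 1.00.

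**Figure D1:**
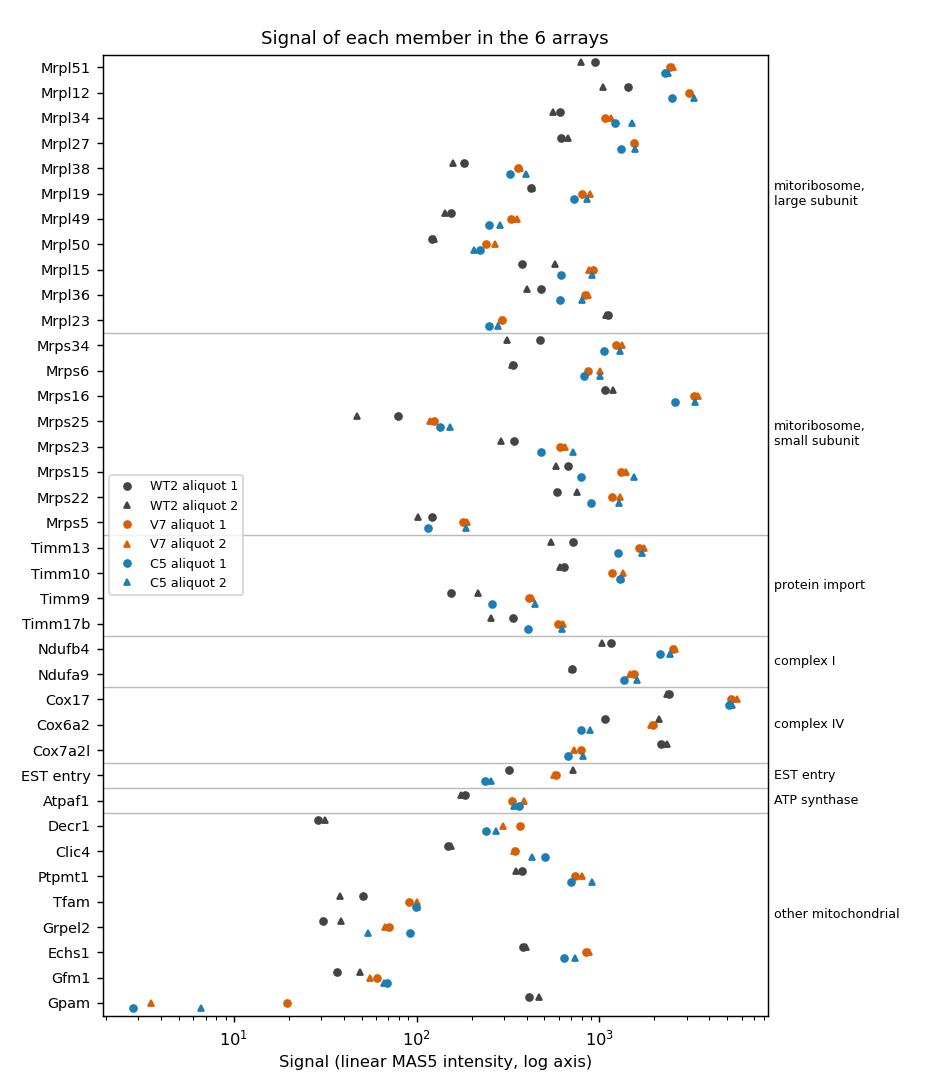
Signal of each of the 38 members (rows, by role) on the 6 arrays, as linear MAS5 intensity on a log axis. Grey points are WT2, orange V7 and blue C5, with circles for aliquot 1 and triangles for aliquot 2. The WT2 points lie left of the others for most rows and right of them for Mrpl23, Cox7a2l and Gpam.

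A member was called when its limma adjusted p, over all probe sets tested, was below 0.05 and its difference at least 2-fold. Against WT2, 18 members were called higher in C5 and 3 lower, and 17 did not pass. Of all probe sets tested, 13.0% were called in this comparison, 5.58% higher and 7.46% lower. C5 against WT2 is a comparison that the choice of members did not use, but it shares the WT2 arrays with the list that chose most of them. For Cox6a2 and the EST entry it shares the C5 arrays with the list for C5 and V7, which chose them as lower in C5. Among the probe sets that the authors list as higher in V7 than in WT2, 70.3% were called higher in C5, and among those listed as lower, 92.3% were called lower, so a high share of calls is a feature of the whole list. The adjusted p was below 0.05 for 36 of the 38 members, Cox6a2 and the EST entry included. For 15 of the 36 the difference was under 2-fold. Of all 27022 probe sets tested, 6945 had an adjusted p below 0.05, and 3421 of these were under 2-fold. In V7 against WT2, which chose the members, 22 were higher and 3 lower by the same limits, where 12.5% of all probe sets tested were called, 5.29% higher and 7.23% lower.

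The 19 mitoribosomal proteins make up the largest subgroup. Against WT2, 9 were called higher in C5 (5.58% of all probe sets tested), 1 was called lower (7.46%), and 9 did not pass. The median log2 difference was 0.89. Of the probe sets that the authors list as higher in V7 than in WT2, 70.3% were called higher in C5. The same shares stand beside the counts by role below. For 18 of the 19 the arrays of C5 and WT2 did not overlap, with C5 above WT2 for 17 (26.2% of all probe sets tested) and below for Mrpl23 (33.4%). The authors' lists held 1 name of a cytosolic ribosomal protein, Rps20, on probe sets whose probes are shared between transcripts. It was also called higher in C5 than in WT2 (log2 difference 1.14, SE 0.30, limma adjusted p = 0.0159). The lists hold only probe sets chosen for a difference, so they give no comparable count for the cytosolic ribosome.

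In the large subunit, 5 of 11 proteins rose in C5 against WT2, 1 fell, and 5 did not pass. Mrpl51, a protein that bacterial ribosomes lack, had signals of 945 and 796 in WT2, 2431 and 2530 in V7, and 2295 and 2371 in C5. C5 was above WT2 by 1.42 on the log2 scale (SE 0.12, limma adjusted p = 5.88e-06). The V7 and C5 arrays lie close together and far above both WT2 arrays. Mrpl12, which forms the stalk that recruits translation factors, had 1434 and 1047 in WT2, 3109 and 3176 in V7, and 2496 and 3283 in C5, a rise of 1.22 in C5 (SE 0.16, limma adjusted p = 2.02e-04). Mrpl34 had 607 and 557 in WT2, 1075 and 1162 in V7, and 1217 and 1515 in C5, a rise of 1.22 (SE 0.14, limma adjusted p = 6.67e-05). Both of its C5 arrays were above both V7 arrays. The arrays of C5 and V7 did not overlap for 6 of the 11 large subunit proteins. C5 was above V7 for 1 of these, Mrpl34 (21.5% of all probe sets tested), and below for the rest (17.4%). Mrpl27 had 618 and 671 in WT2, 1543 and 1575 in V7, and 1318 and 1576 in C5, a rise of 1.16 (SE 0.13, limma adjusted p = 5.47e-05). Mrpl38, another protein without a bacterial counterpart, had 181 and 158 in WT2, 360.5 and 368 in V7, and 326 and 398 in C5, a rise of 1.07 (SE 0.17, limma adjusted p = 6.29e-04). For both genes the 2 WT2 arrays were the lowest of the 6. Without WT2 replicate 2 the differences of Mrpl12 and Mrpl38 were 0.99 and 0.97, and without C5 replicate 2 that of Mrpl38 was 0.93, all under 2-fold.

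Mrpl23, which lies at the exit of the ribosomal tunnel, went the other way from the other large subunit proteins. Its signals were 1112 and 1084 in WT2, 292 and 291 in V7, and 250.2 and 279 in C5, so it fell by 2.03 on the log2 scale in C5 (SE 0.14, limma adjusted p = 1.21e-06). The WT2 aliquots differ little from each other and stand well above the other 4 arrays. Mrpl23 had 1 listed probe set, which leaves no second measurement of the gene among the members.

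The other large subunit proteins missed the 2-fold limit. Mrpl19 had 422 and 428 in WT2, 801 and 883 in V7, and 728 and 859 in C5, a difference of 0.89 (SE 0.14, limma adjusted p = 6.35e-04). That probe set carries a suffix for probes shared between transcripts. The other probe set of Mrpl19, without the suffix, had 359 and 297 in WT2, 716 and 761 in V7, and 579.8 and 804 in C5, and it rose by 1.05 (limma adjusted p = 9.39e-04). Without C5 replicate 1 the first probe set of Mrpl19 was at 1.01 and passed. Mrpl49 had 155 and 143 in WT2, 327 and 356 in V7, and 249 and 286 in C5, a difference of 0.82 (SE 0.17, limma adjusted p = 0.00332). Both genes show no overlap between WT2 and the other lines. Mrpl50, Mrpl15 and Mrpl36 differed from WT2 by 0.66 to 0.77 in C5, with limma adjusted p from 0.00582 to 0.031. A second, dimmer probe set of Mrpl27, with signals of 42.4 to 129, was at 0.86 and did not pass, unlike the first.

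In the small subunit, 4 of 8 proteins rose in C5 against WT2 and 4 did not pass. Mrps34, a mitochondria-specific protein, had the largest difference of the subunit, with signals of 475 and 314 in WT2, 1235 and 1330 in V7, and 1063 and 1301 in C5. C5 was above WT2 by 1.59 (SE 0.18, limma adjusted p = 7.10e-05). The lowest C5 array was above the higher WT2 array by more than the WT2 aliquots differed. Mrps6 had 335 and 332 in WT2, 865 and 1003 in V7, and 819 and 1008 in C5, a rise of 1.43 (SE 0.15, limma adjusted p = 2.91e-05), and its second probe set rose by 1.41. Mrps16 had 1076 and 1187 in WT2, 3278 and 3455 in V7, and 2595 and 3318 in C5, a rise of 1.37 (SE 0.13, limma adjusted p = 1.58e-05). Both have counterparts in bacterial ribosomes, and both were lower in each WT2 array than in any other. Mrps25 had 79.1 and 47 in WT2, 124 and 119 in V7, and 135 and 153 in C5, a rise of 1.17 (SE 0.25, limma adjusted p = 0.0044). Without WT2 replicate 2 the difference of Mrps25 was 0.82, and without C5 replicate 2 it was 1.08 with a limma adjusted p of 0.0501, so its call rests on both aliquots.

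The remaining small subunit proteins did not pass. Mrps23 had 339.7 and 289 in WT2, 607 and 649 in V7, and 477 and 715 in C5, a difference of 0.89 (SE 0.19, limma adjusted p = 0.00454). Mrps15 had 673 and 579 in WT2, 1321 and 1391 in V7, and 791 and 1542 in C5, a difference of 0.82 (SE 0.24, limma adjusted p = 0.0246). In both genes C5 aliquot 1 was well below aliquot 2, and without C5 replicate 1 both passed, at 1.18 and 1.30, as did Mrps23 without WT2 replicate 1 at 1.00. Mrps22 had 584 and 752 in WT2, 1179 and 1302 in V7, and 901 and 1276 in C5, a difference of 0.69 (SE 0.18, limma adjusted p = 0.0136). Mrps5 had 121 and 102 in WT2, 179 and 189 in V7, and 116 and 187 in C5, a difference of 0.39 (SE 0.23, limma adjusted p = 0.257). It is the one member whose C5 and WT2 arrays overlapped.

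**Figure D2:**
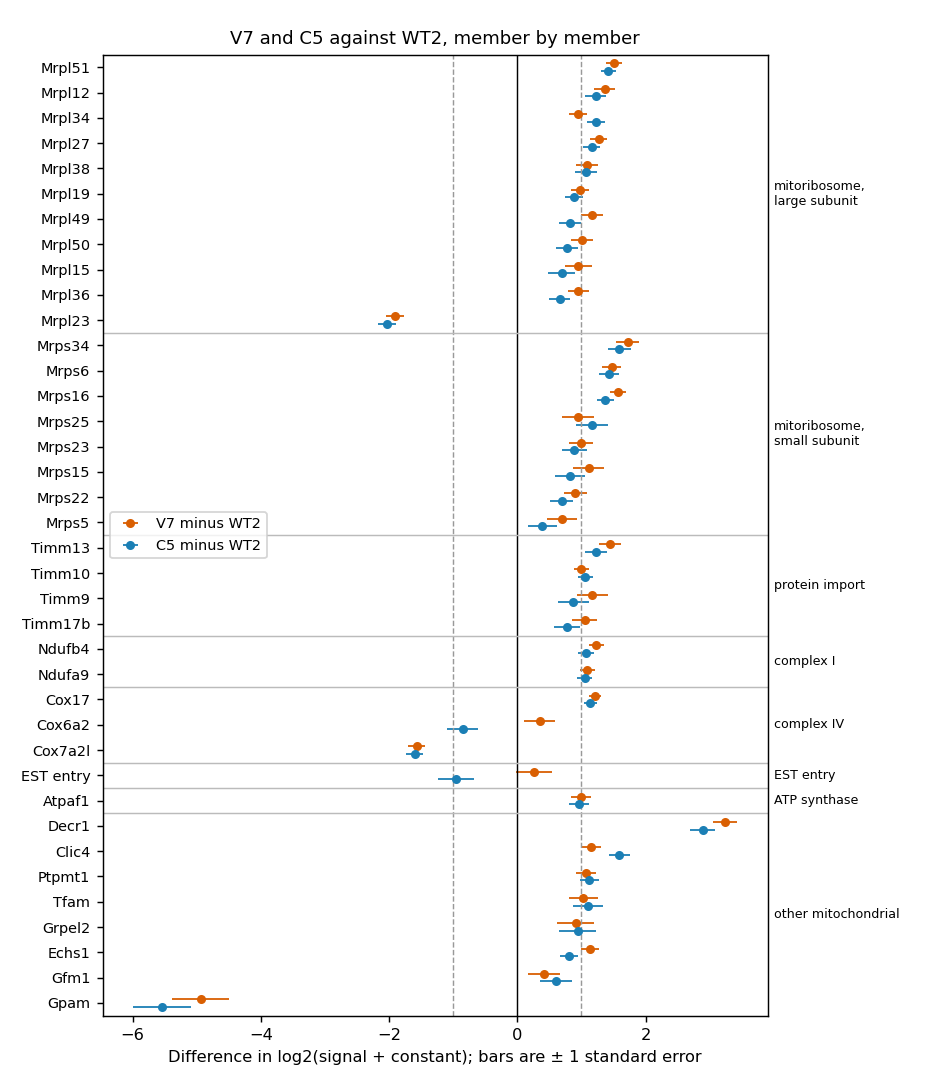
Difference from WT2 of each of the 38 members, in log2(signal + 5.03), for V7 (orange) and C5 (blue), with bars of ± 1 standard error from the fit over 6 arrays and dashed lines at 2-fold. Most members sit between 0.4 and 1.7 in both lines, Decr1 lies near 3, and Mrpl23, Cox7a2l and Gpam lie below −1 in both.

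Of the 4 import genes, 2 rose in C5 against WT2 and 2 did not pass. Timm13, a small chaperone of the intermembrane space, had signals of 715 and 546 in WT2, 1655 and 1761 in V7, and 1257 and 1715 in C5, a rise of 1.23 (SE 0.17, limma adjusted p = 2.58e-04). Timm10 had 637 and 611 in WT2, 1173 and 1347 in V7, and 1289 and 1317 in C5, a rise of 1.06 (SE 0.12, limma adjusted p = 8.27e-05). Its partner in the chaperone that guides carrier proteins to the inner membrane is Timm9, which had 155 and 217 in WT2, 410.2 and 429 in V7, and 259 and 444 in C5, a difference of 0.87 (SE 0.24, limma adjusted p = 0.0194). Timm9 thus missed the 2-fold limit while its arrays did not overlap with WT2. Timm17b, a subunit of the inner membrane translocase TIM23, had 336 and 254 in WT2, 592 and 629 in V7, and 409 and 620.4 in C5, a difference of 0.77 (SE 0.20, limma adjusted p = 0.015). Without C5 replicate 1, Timm9 and Timm17b passed at 1.26 and 1.07, and without WT2 replicate 2 Timm9 passed at 1.11.

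Both members of complex I, the NADH dehydrogenase, rose in C5 against WT2. Ndufa9, an accessory subunit, had 707 and 709 in WT2, 1548 and 1473 in V7, and 1361 and 1597 in C5, a rise of 1.05 (SE 0.12, limma adjusted p = 8.27e-05). Ndufb4, an accessory subunit of the membrane arm, had 1153 and 1029 in WT2, 2544 and 2585 in V7, and 2143 and 2442 in C5, a rise of 1.07 (SE 0.12, limma adjusted p = 4.97e-05). Its other listed probe set rose by 1.06. Both genes are close to the 2-fold limit: without C5 replicate 2 they were at 0.94 and 0.97, without WT2 replicate 2 Ndufb4 was at 0.99, and under quantile normalization Ndufb4 was at 0.99. Atpaf1, an assembly factor of the ATP synthase, had 183 and 174 in WT2, 330.4 and 389 in V7, and 365 and 339 in C5. Its difference of 0.96 (SE 0.16, limma adjusted p = 0.001) did not pass, and without C5 replicate 2 it was 1.01 and passed.

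The members of complex IV, cytochrome c oxidase, did not move together. Cox17, the chaperone that delivers copper to the complex, had 2392 and 2338 in WT2, 5276 and 5685 in V7, and 5133 and 5297 in C5, a rise of 1.14 in C5 (SE 0.10, limma adjusted p = 6.48e-06). Cox7a2l, which takes part in assembling respiratory supercomplexes, had 2183 and 2338 in WT2, 792 and 728 in V7, and 675 and 812 in C5, and it fell by 1.60 (SE 0.13, limma adjusted p = 4.93e-06). The other 2 probe sets of Cox7a2l fell as well, by 1.57 and 1.37. For both genes V7 and C5 lie together on one side of WT2.

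Cox6a2, the heart and muscle isoform of a complex IV subunit, came from the list for C5 and V7. Its signals were 1076 and 2132 in WT2, 1955 and 1922 in V7, and 791 and 887 in C5. The EST entry, deposited as weakly similar to the mouse heart precursor of polypeptide VIa, had 319 and 719 in WT2, 581 and 566 in V7, and 237 and 255 in C5. Its probe set carries the suffix x, for probes that can match several transcripts. Whether the 2 entries measure the same transcript was not tested. In both, C5 was below every other array and WT2 aliquot 1 was below WT2 aliquot 2, so WT2 overlapped V7. Against V7, C5 was lower by a log2 difference of −1.21 in each, the contrast that chose them. That choice used the C5 arrays, so the values of C5 against WT2 are only a description for these 2 entries. Against WT2, the differences were −0.85 (SE 0.24, limma adjusted p = 0.02) for Cox6a2 and −0.95 (SE 0.28, limma adjusted p = 0.0271) for the EST entry, both under 2-fold. The WT2 aliquots decide their size: without WT2 replicate 1 they were −1.34 and −1.53 and passed, and without WT2 replicate 2 they were −0.36 and −0.37.

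Among the 8 other mitochondrial proteins, 4 rose in C5 against WT2, 1 fell and 3 did not pass. Decr1, the reductase needed to oxidise polyunsaturated fatty acids, had the largest rise of all members, with 28.9 and 31.7 in WT2, 366 and 297 in V7, and 241 and 272 in C5. C5 was above WT2 by 2.89 (SE 0.19, limma adjusted p = 1.01e-06), an 8.46-fold ratio of the mean signals. A second, dimmer probe set of Decr1 had 1.49 and 17.8 in WT2, 74.8 and 65.6 in V7, and 74.1 and 72.6 in C5, and rose by 2.68. Both probe sets separate WT2 from the other lines.

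Gpam, the acyltransferase that starts glycerolipid synthesis at the outer mitochondrial membrane, had the largest fall, with 410.1 and 469 in WT2, 19.4 and 3.53 in V7, and 2.81 and 6.63 in C5. The difference of C5 from WT2 was −5.54 (SE 0.45, limma adjusted p = 4.74e-06). The C5 signals lie near or below the constant of 5.03 added before taking logs, as does V7 aliquot 2, so the size depends on it: with 1 added the difference was −6.35, and with the median signal of 18.1 added it was −4.33. It remained called under all alternatives tried.

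Clic4, deposited as a mitochondrial chloride intracellular channel, had 149 and 154 in WT2, 347 and 339 in V7, and 506 and 429.7 in C5, a rise of 1.59 (SE 0.16, limma adjusted p = 2.24e-05), and its second probe set rose by 1.09. Ptpmt1, a phosphatase of cardiolipin synthesis, had 379 and 349.5 in WT2, 734 and 806 in V7, and 701 and 907 in C5, a rise of 1.12 (SE 0.15, limma adjusted p = 2.58e-04). Tfam had 50.7 and 38 in WT2, 90.3 and 100.1 in V7, and 98.9 and 100.2 in C5, a rise of 1.10 (SE 0.23, limma adjusted p = 0.0045). In all 3 genes the WT2 arrays were the lowest of the 6. Without C5 replicate 2 Ptpmt1 was at 0.94, and without WT2 replicate 2 Tfam was at 0.91. With the median signal added before taking logs Tfam was at 0.92, all of them under 2-fold. Grpel2, a nucleotide exchange factor of the mitochondrial Hsp70 import motor, had 30.6 and 38.4 in WT2, 70.7 and 67.1 in V7, and 91.5 and 54.2 in C5. Its difference of 0.94 (SE 0.29, limma adjusted p = 0.032) did not pass, but it passed without WT2 replicate 2 (1.08), without C5 replicate 2 (1.30), with 1 added (1.02) and under quantile normalization (1.12). Echs1, an enoyl-CoA hydratase of fatty acid oxidation, differed by 0.80 (SE 0.14, limma adjusted p = 0.00106). Gfm1, the mitochondrial elongation factor G, had 36.7 and 49.1 in WT2, 60.9 and 55.9 in V7, and 68.6 and 66.1 in C5, and its difference of 0.61 had a limma adjusted p of 0.106 (SE 0.25).

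**Figure D3:**
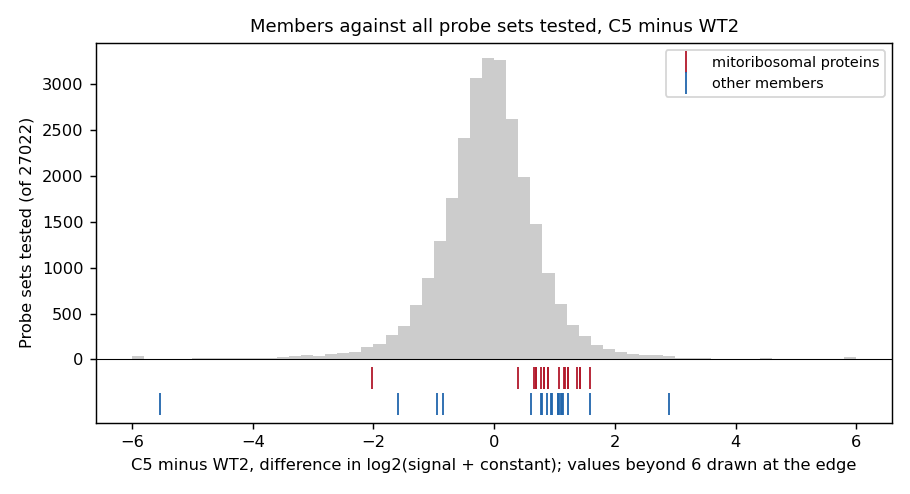
Distribution of the C5 minus WT2 difference in log2(signal + 5.03) over the 27022 probe sets tested (grey bars, number of probe sets), with the members as ticks below, mitoribosomal proteins in red and other members in blue. The median of all probe sets is −0.07 and that of the members 0.95, and 5 members lie below 0. Most members were chosen for a difference between V7 and WT2, so their place is not independent of the choice.

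In the contrast that chose them, V7 against WT2, the members of the first list had ratios of at least 2 in the authors' deposited table, 39 of their 44 probe sets up in V7 and 5 down. Of all 2420 probe sets in that list, 57.2% are up and 42.8% down. Just inside its floor, a ratio of 2, the authors' deposited table gives Mrpl34 at 2, Mrps5 and Timm17b at 2.02 and Gfm1 at 2.05, and Cox6a2 has 2.12 in the list for C5 and V7. In the value table, the log2 difference of V7 from WT2 was 0.94 for Mrpl34, 0.70 for Mrps5, 1.05 for Timm17b and 0.42 for Gfm1. The farthest from 0 were Gpam (−4.94), Decr1 (3.24), Mrpl23 (−1.90) and Mrps34 (1.72). Mitoribosomal proteins ran from −1.90 to 1.72 with a median of 1.01, and import genes from 1.00 to 1.44. Genes just outside the floor carry no deposited name and were not analysed here.

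C5 and V7 were set against each other to ask whether the members differ between the metastatic and the highly metastatic clone. With limma, 0 of 38 members passed (0.0999% of all probe sets tested did, 0.0296% higher and 0.0703% lower), 4 had an unadjusted p below 0.05, and 2 passed without WT2 replicate 1 or without WT2 replicate 2, both lower and both from the list for this contrast (Cox6a2 and the EST entry). Of all 27022 probe sets tested, 1756 had an unadjusted limma p below 0.05. The differences of the members ran from −1.21 for Cox6a2 and the EST entry to 0.44 for Clic4, with Gpam at −0.60. Of the 38, 30 were negative, with a median of −0.13. Over all 27022 probe sets tested, 12815 were negative and the median was 0.02. Of the 19 mitoribosomal proteins 17 were negative, from −0.35 for Mrpl49 to 0.28 for Mrpl34. The median rests on 1 array: without C5 replicate 1 it was 0.02, and without C5 replicate 2 it was −0.25. The comparison shares the V7 arrays with the list that chose most members, mostly as higher in V7. A negative sign in C5 against V7 is thus not independent of that choice.

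The C5 aliquots differed for these genes. Aliquot 2 of C5 was above aliquot 1 for 33 of 38 members (86.8%) and for 18 of 19 mitoribosomal proteins (94.7%), with median log2 differences of 0.25 and 0.30. Over all probe sets tested the share was 47% and the median −0.03, and over the 13996 probe sets with a mean signal within the members' range it was 43.8% with a median of −0.05. Mrps15 had the widest gap, 791 against 1542, and Timm9 had 259 against 444. In V7, aliquot 2 was above aliquot 1 for 26 of 38 members and 16 of 19 mitoribosomal proteins, with medians of 0.07 and 0.08. In WT2 it was above for 17 of 38 and 6 of 19, with medians of −0.03 and −0.12. Over all probe sets tested the share was 50.9% in both of these lines. Aliquot 2 was thus the higher one for most mitoribosomal proteins in V7 as well, by a smaller median. The 3' to 5' ratio of beta-actin was 2.91 in C5 aliquot 1 and 1.87 in aliquot 2, and that of Gapdh 1.15 and 0.829. In V7 they were 2.5 and 2.04 and 0.96 and 0.887. The part of these ratios in the differences between aliquots was not tested. Against WT2, 26 members were called without C5 replicate 1 and 18 without C5 replicate 2, in place of 21.

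**Figure D4:**
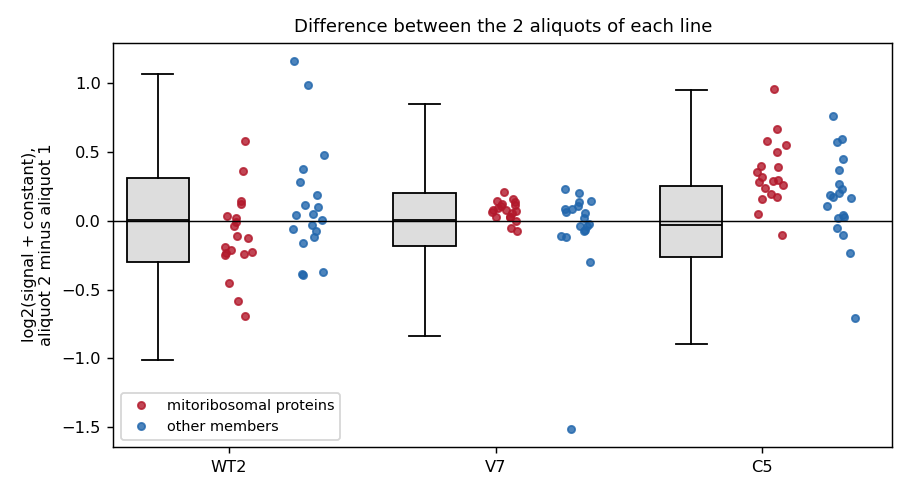
Difference between aliquot 2 and aliquot 1 of each line in log2(signal + 5.03). Boxes show the quartiles of the 27022 probe sets tested, with the line at the median and whiskers at the 5th and 95th percentiles, red points the 19 mitoribosomal proteins and blue points the 19 other members. In C5, 18 of the 19 red points lie above 0, and the grey box is centred at −0.03.

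Of the regulators of mitochondrial biogenesis, 4 of 18 genes had a name in the lists, so the others were not analysed here. The named ones other than Tfam and Mycn were picked after their values were seen. Esrra, an orphan nuclear receptor, had 176 and 137 in WT2, 426 and 396 in V7, and 375 and 451 in C5, and rose by 1.37 in C5 against WT2 (SE 0.18, limma adjusted p = 1.54e-04), and Tfam rose as given above. Gabpb1, the partner subunit of GABP, had 481 and 458 in WT2, 185 and 137 in V7, and 169.8 and 193 in C5, and fell by 1.35 (SE 0.18, limma adjusted p = 2.51e-04). Its probe set shares probes between transcripts. Mycn, a MYC family transcription factor, had 13042 and 13710 in WT2, 43.5 and 18.6 in V7, and 11.7 and 8.78 in C5, and was called lower (limma adjusted p = 1.06e-09, log2 difference −9.78, SE 0.28). Its C5 signals are not far above the added constant of 5.03, so the size of this difference depends on that constant. Between C5 and V7, none of these 4 regulators passed in the limma fit.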

How the data were processed

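Total RNA of 6 samples, 2 aliquots of each of 3 EL4 clones, was hybridised to Affymetrix arrays. Per the submitters' processing notes the authors used MAS5, version not stated, and the deposited matrix gives each probe set's signal intensity on every array, on a linear scale. The equal trimmed means show that the authors had scaled the arrays. The authors' lists hold a fold ratio, log2 means per line with their standard errors, and raw and adjusted p-values of a t-test on log-transformed data, per the file headers. They were used to choose and name members, and ratios from them are credited to them.

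Signals were analysed as log2(signal + 5.03), with the 25th percentile of the signals as the added constant. Of 45101 probe sets, 64 array controls and those with a mean signal at or below 11.7 (the 40th percentile) were left out, and 27022 were tested. The 6 arrays were fitted together, with a mean for each clone, in limma 3.58.1 (R 4.3.3; 3 residual and 8.47 prior degrees of freedom, variance trend, two-sided, Benjamini-Hochberg adjustment). Calls needed an adjusted p below 0.05 and a 2-fold difference. The fit was also run on simulated arrays whose noise had the size of the spread between aliquots. That run cannot cover variation between clones. The number of arrays limits the precision. Tables were made in Python 3.11.15 with pandas 2.3.3 and numpy 2.4.6, figures with matplotlib 3.10.9.

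A gene with several listed probe sets was represented by its brightest. Of the 38 representative probe sets, 16 carry a suffix for probes that can match several transcripts, 11 the suffix a and 5 s or x. Symbols were assigned from the deposited names. All 37 were found in RefSeq, and for 15 a deposited accession gave the same symbol. Members, lists, motifs and tests were chosen with earlier results of these data known. Values in every array are given for up to 8 members of each mitoribosomal subunit and up to 6 of each other role, those farthest from 0 in C5 against WT2, and for the 2 closest to 0. Other genes were named only from counts. Alternatives were another constant, filter, normalization, variance model, threshold and fold limit, a block for the aliquot number, the mean of a gene's probe sets, and each array left out.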

Additional observations from a re-analysis of the deposited data

How the results depend on the processing

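Against WT2, 21 members were called in C5, and this count was 20 to 22 with another constant, filter, normalization or variance model and with the stricter threshold of 0.01. Against WT2, no difference of a member changed sign under the alternatives run, except those of Cox6a2 and the EST entry in V7, which were not called (0.35 and 0.26, and −0.14 and −0.32 without WT2 replicate 1). Leaving out 1 array gave 18 to 26 called members in C5 and 22 to 28 in V7 against WT2, 7 to 13 and 10 to 13 mitoribosomal proteins, and 0 to 2 members between C5 and V7. Without the fold limit, 36 members and 18 mitoribosomal proteins were called in C5, and 35 and 19 in V7. Of the 27022 probe sets tested, 3296 were then called higher and 3649 lower in C5, and 3159 and 3489 in V7. Under quantile normalization the calls over all probe sets in V7 against WT2 were 1703 higher and 1542 lower, in place of 1430 and 1955 (52.5% and 42.2% higher). With the aliquot number as a replicate block, 21 members were called in C5 and 25 in V7, and no call of a member changed. The numbers did not pair the samples: deviations from the line means correlated at −0.0378 to 0.0396.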

Other observations

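Other mitochondrial gene groups were covered thinly by the names in the authors' lists, which hold only probe sets chosen for a difference. Of 16 mitochondrial chaperones and proteases, 3 had a name, and Phb2, a prohibitin of the inner membrane, was called higher in C5 than in WT2. Its signals were 1190 and 913 in WT2, 2518 and 2701 in V7, and 2674 and 2454 in C5 (log2 difference 1.29, SE 0.14, limma adjusted p = 3.45e-05). The proteases Htra2 and Clpp differed by 0.91 and 0.85, under 2-fold. The probe sets used for Phb2, Htra2 and Clpp share probes between transcripts. Of a list of 11 fatty acid oxidation genes, which does not hold the members Decr1 and Echs1, Cpt1a, which brings long-chain fatty acids into mitochondria, was the one with a name, and it rose by 1.14 in C5 (SE 0.16, limma adjusted p = 3.15e-04), with 244 and 200.2 in WT2, 489 and 571 in V7, and 471 and 513 in C5.

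Of 6 mitochondrial one-carbon and folate enzymes, Mthfd2 alone had a name, and it was lower outside WT2, with 1552 and 2013 in WT2, 722 and 719.5 in V7, and 656 and 616 in C5. It fell by 1.47 in C5 against WT2 (SE 0.14, limma adjusted p = 1.91e-05). Of 15 mitochondrial translation and assembly factors, Gfm1 and Nsun4 had a name and neither passed. None of 21 citric acid cycle genes and none of 12 genes of the outer membrane, fusion and fission had a name in the lists. Genes named in these paragraphs beyond the members were picked after their values were seen.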
